A study of Rattus norvegicus with 24 samples.

Results

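Reads mapped to tRNAs for alanine (Ala), valine (Val), leucine (Leu), proline (Pro) and methionine (Met) were examined in the small RNA of rat brain 3 months after traumatic brain injury (TBI). They were taken as every row whose name gives a tRNA number followed by 1 of these 5 amino acids, which gave 156 of the 444 tRNA features and 1172 small RNA features in the cortex count table. Of the 156, 57 had no read in any of the 12 cortex libraries, 78 were listed in the cortex table of CPM (reads scaled to a common library total) and 79 in the thalamus CPM table, and 78 were in both. The injured group were adult male Sprague-Dawley rats with lateral fluid-percussion injury, a model in which a fluid pulse strikes the exposed dura, and were selected by the study for chronic inflammation after the injury. The controls were sham-operated adult male Sprague-Dawley rats. Each group held 6 rats, and perilesional cortex and ipsilateral thalamus came from the same 12 rats, giving 24 libraries. Each library was made from whole tissue, so fewer cells of a type and less RNA per cell cannot be told apart.

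A tRNA carries its amino acid to the ribosome and pairs with a codon through its anticodon. Several anticodons serve each of these amino acids except Met, whose initiator and elongator tRNAs both read with CAT, and most anticodons are encoded by many near-identical genes. Cleavage of tRNAs by ribonucleases such as angiogenin leaves fragments of the size range of a small RNA library, and cell stress is known to raise such cleavage. A row here counts reads anywhere on 1 tRNA, so it does not separate fragments of the 5′ end from those of the 3′ end.

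The small RNA tables held 847300 to 4501868 reads per cortex library and 615608 to 4530850 per thalamus library. Of these, tRNAs made up 6.11 to 18.1% in the cortex and 8.26 to 17.7% in the thalamus, and the 5 amino acids made up 3.59 to 8.58% of tRNA reads in the cortex and 4.24 to 9.62% in the thalamus. This left 5601 to 23359 cortex reads and 5862 to 29950 thalamus reads per library for the rows described here. The summed neuronal miRNAs miR-124-3p, miR-9a-5p, miR-9a-3p and miR-128-3p spanned 220080 to 303226 CPM in TBI cortex and 275545 to 398555 CPM in sham cortex, and 1 of the 4 was lower in TBI (edgeR, adjusted p under 0.05). In the thalamus they spanned 132044 to 216076 CPM in TBI and 189331 to 234574 CPM in sham, and none passed. All 3 oligodendrocyte miRNAs were detected in both regions and none of them passed the test. Their cortex sums were 3182 to 4100 CPM in TBI and 2488 to 3181 CPM in sham, so every TBI sum lay above every sham sum, narrowly. In the thalamus the sums overlapped, at 10905 to 14632 CPM in TBI and 10833 to 13790 CPM in sham. All marker sums are CPM, which ran higher in TBI cortex for the typical feature, as described below. The 5 leukocyte and microglial miRNAs summed to 710.5 to 1665 CPM in TBI cortex and 603 to 1004 CPM in sham cortex, and none passed. In the thalamus 4 of these 5 were listed and 1 of them was higher in TBI, with sums of 859.3 to 2031 CPM against 622.5 to 1270 CPM. Both choroid plexus miRNAs were listed, and 1 of them was higher in TBI cortex. In the thalamus neither passed, and their sums overlapped, at 979.8 to 14248 CPM in TBI and 1136 to 5333 CPM in sham. The red cell miRNAs summed to at most 85 CPM in any library. Whether these shifts had a part in the tRNA values was not tested.

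The anticodons differed widely in level, and Val-CAC and Val-AAC led in both regions. Over the 12 cortex libraries Val-CAC averaged 1558 ± 568 CPM (SD) and Val-AAC 1447 ± 490.7 CPM. The first was above the second in 11 of 12 cortex libraries but in only 8 of 12 thalamus libraries, where they averaged 1913 ± 1029 and 1856 ± 929.5 CPM. Leu-TAA had the next highest mean in both regions, with 629.2 ± 199.6 CPM in the cortex and 936 ± 736.4 CPM in the thalamus, where 1 sham rat held 3182 CPM. It exceeded Leu-AAG in 8 of 12 cortex libraries and in only 6 of 12 thalamus libraries.

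Below these anticodons the cortex order ran Leu-AAG, Met-CAT, Leu-TAG, Val-TAC, Leu-CAG, Leu-CAA, Pro-TGG, Pro-AGG, Ala-TGC, Pro-CGG, Ala-AGC and Ala-CGC. Several neighbours in it could not be separated. Leu-AAG exceeded Met-CAT in 5 of 12 libraries, Val-TAC exceeded Leu-CAG in 5 of 12, Leu-CAA exceeded Pro-TGG in 7 of 12, and Ala-AGC exceeded Ala-CGC in 7 of 12. Steps present in all 12 cortex libraries were those from Val-AAC to Leu-TAA and from Pro-TGG to Pro-AGG. Ala-CGC, the lowest, averaged 74.4 ± 20.4 CPM. These are sums over rows, not per length. Divided by the median length of the rat RefSeq tRNA genes (GRCr8) of each anticodon, the order in the cortex kept its first 8 places, with 2134 CPM per 100 bases for Val-CAC and 1982 for Val-AAC. Only Leu-CAA with Pro-TGG and Pro-AGG with Ala-TGC changed places.

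**Figure D1:**
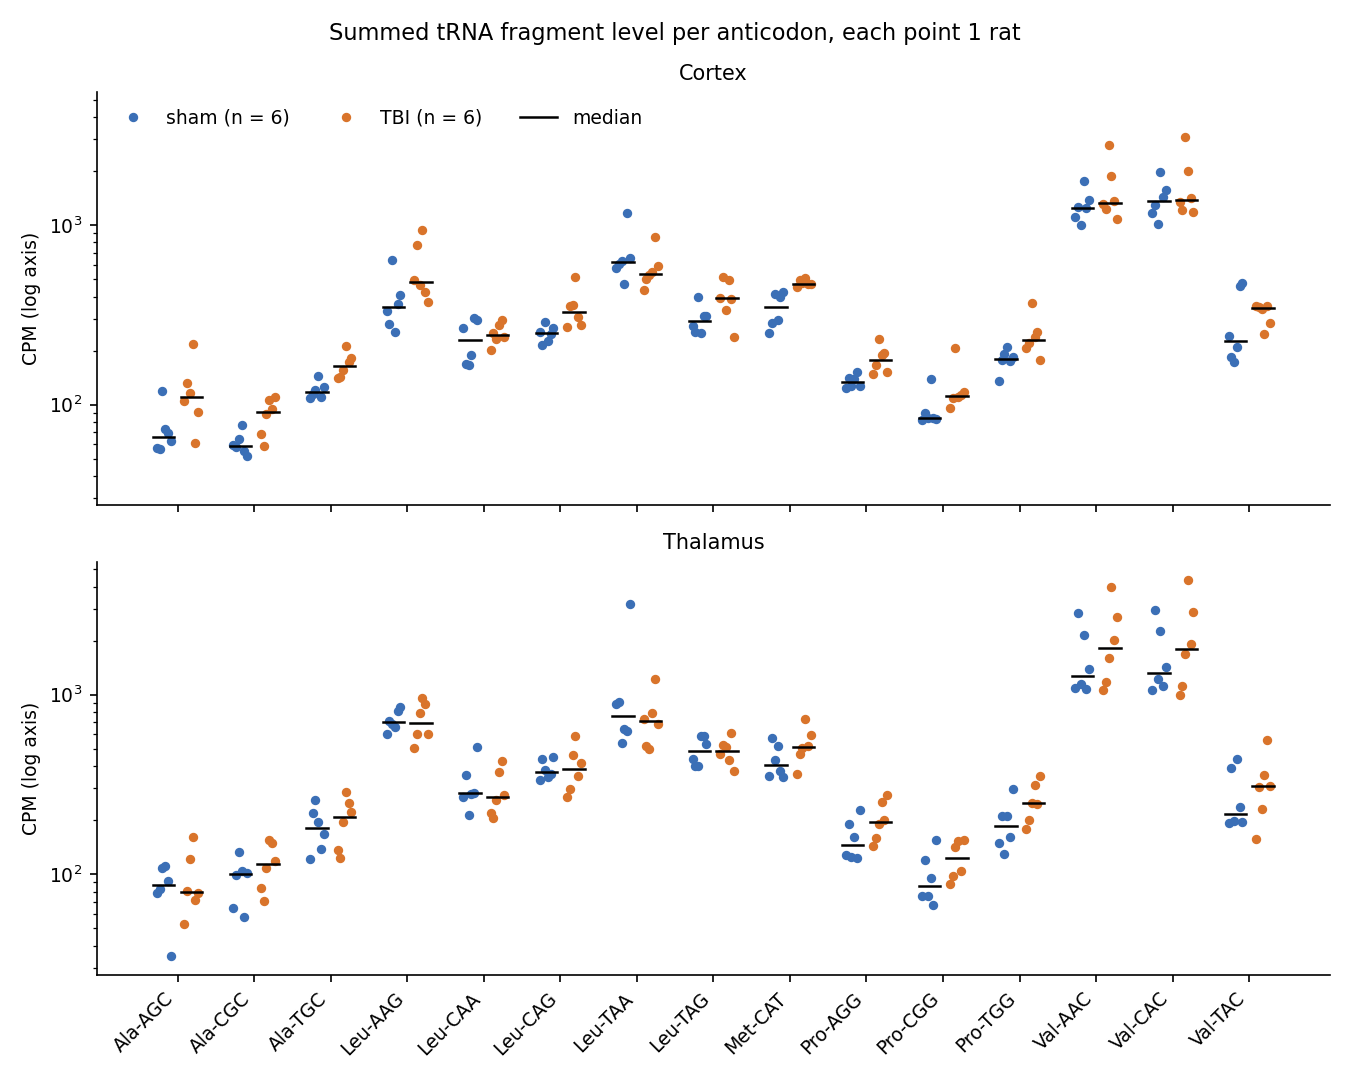
Summed CPM of all rows of each anticodon (log axis) in cortex (top) and thalamus (bottom), with 1 point per rat, sham in blue, TBI in orange and a black line at each group's median. Val-CAC and Val-AAC are highest in both regions, 1 sham thalamus stands apart for Leu-TAA at 3182 CPM, and the groups overlap for every anticodon except Met-CAT in the cortex.

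How far the rows of an anticodon are separate measurements was examined first, since their reads may be divided among near-identical genes. For each pair of rows with at least 120 reads in a region, a chi-square was computed on their reads over the 12 libraries. Divided by its degrees of freedom it is near 1 where the rows differ over libraries by no more than counting noise. In the cortex its median was 1.57 over the 227 pairs that shared an anticodon, 3.41 over the 419 pairs that shared only the amino acid, and 4.64 over the 2435 pairs of unlike amino acids. The share of pairs under 2 was 61.2%, 33.2% and 9.82% in these classes. The thalamus gave medians of 1.87, 4.34 and 5.83. A row with few reads comes out low against any other, and the limits of 120 reads and of 2 were chosen after the values were seen. The sets of like rows named below were also picked from these values, so low values within a set describe it and do not test it.

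The Val rows showed the pattern most plainly. In the cortex tRNA4114, tRNA1307, tRNA2189 and tRNA1600 of Val-CAC held between 9205 and 9585 reads each over the 12 libraries, a span of 1.04-fold, and their pairwise chi-square per degree of freedom ran from 0.36 to 1.25. The Val-AAC rows tRNA9183 and tRNA10806 held 9352 and 9515 reads and gave 0.75 to 3.24 against those 4 rows. In the thalamus they gave 2.85 to 4.34 against them, while the Val-AAC rows tRNA1308 and tRNA1314 gave 0.62 to 2.41 there. The 2 Val-TAC rows matched each other at 0.75 but gave 34.2 to 38.6 against the Val-CAC rows. A further pair, tRNA1610 of Val-CAC and tRNA1631 of Val-AAC, crossed the anticodons, with 2149 and 2867 reads and a value of 1.17.

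Among the Leu rows, 9 of the Leu-CAG rows held 606 to 744 cortex reads each and gave 0.29 to 1.68 among themselves. The tenth, tRNA3641-LeuCAG, held 1491 reads and stood outside that set. The 3 Leu-CAA rows gave 0.47 to 1.12. The Leu-TAG row tRNA2467 gave 1.37 to 1.68 against the Leu-AAG rows tRNA871, tRNA5254 and tRNA12023, all with 2523 to 2691 reads, and 1.68 to 3.24 against them in the thalamus.

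Met-CAT rows did not share a single profile, and 2 blocks were picked from the values themselves. The rows tRNA2927, tRNA3895 and tRNA7573 were placed in neither block. Within the first block, tRNA1583, tRNA1647, tRNA1954, tRNA3836, tRNA3845 and tRNA3856, the values were 0.43 to 1.46 in the cortex and 0.71 to 2.94 in the thalamus. Within the second, tRNA1682, tRNA3806 and tRNA7114, they were 0.55 to 2.68 in the cortex and 2.49 to 9.51 in the thalamus. Neither block thus stayed under 2 in the thalamus, where values within the second block overlapped those between the blocks. Between the blocks they were 5.03 to 10.4 in the cortex and 3.52 to 10.3 in the thalamus. Thalamus values above 2 within a set were not particular to Met. The 4 Val-CAC rows gave 0.65 to 2.23 there and the 9 Leu-CAG rows 0.51 to 2.50, while the Leu-CAA rows gave 0.75 to 1.69. The row names do not say which of them are initiator tRNAs. Pro rows gave low values across anticodons, though such values were not limited to pairs of Pro rows. In the thalamus tRNA3836-MetCAT gave 0.79 to 2.2 against the Pro-AGG rows, while tRNA7114-MetCAT gave 4.24 to 8.91. The median over the 48 Pro-AGG and Pro-TGG pairs was 1.19 in the cortex and 1.41 in the thalamus. For these reasons the injury comparison is given for single rows and again for sums, and counts of rows below are not counts of independent tRNAs.

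**Figure D2:**
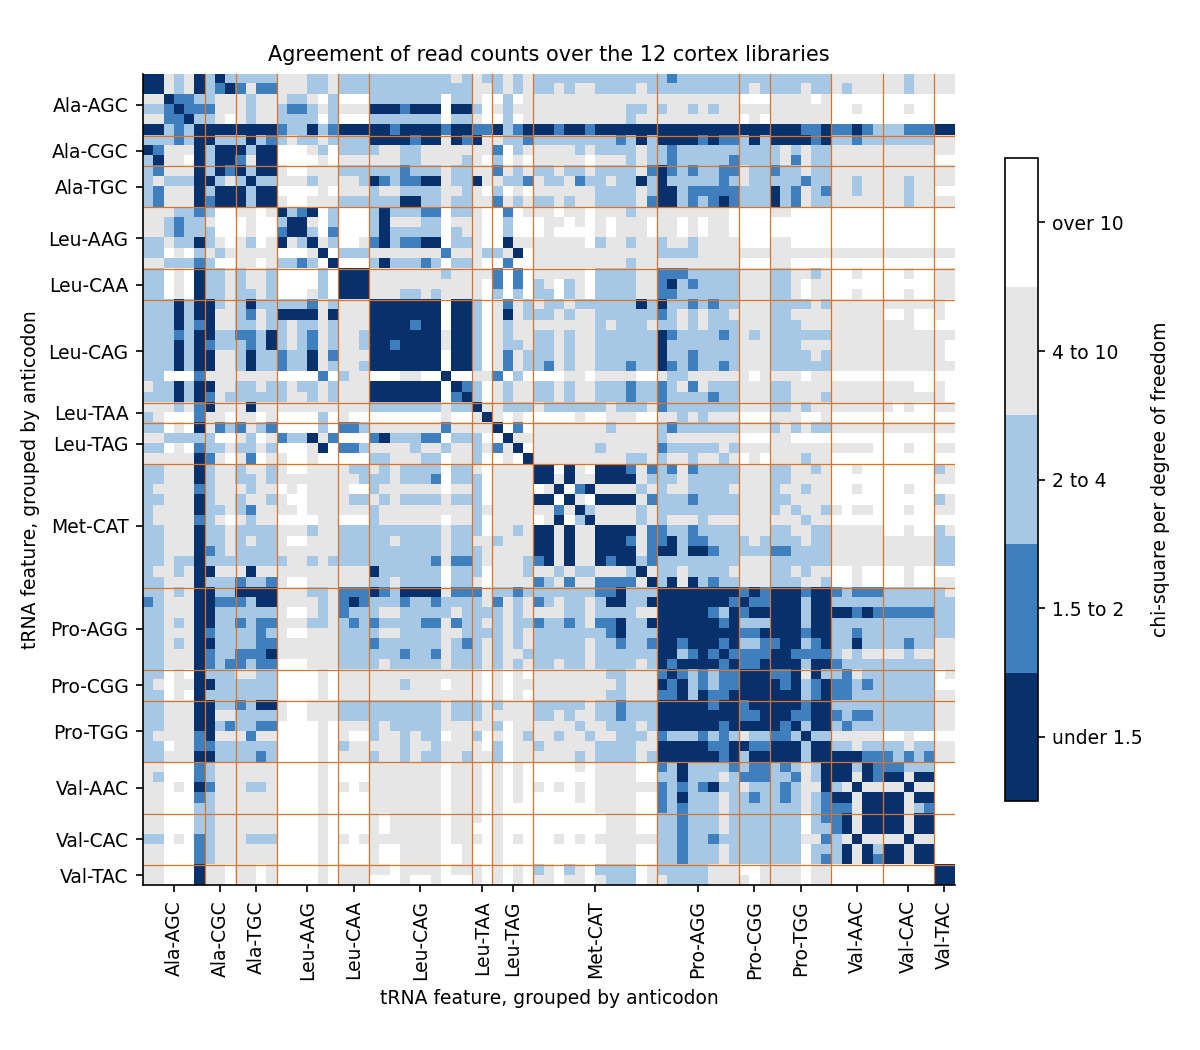
Chi-square per degree of freedom of the reads of each pair of the 79 rows over the 12 cortex libraries, in 5 classes, with both axes grouped by anticodon and orange lines between anticodons. Dark blocks are rows whose reads differed over libraries by no more than about counting noise. They fill Leu-CAA, most of Leu-CAG and the Pro anticodons, cross between Val-AAC and Val-CAC, and break up inside Met-CAT, while the dark row and column in Ala-AGC is a row with few reads.

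The first comparison asked which of these rows differed between TBI and sham cortex. None of the 79 rows that could be tested passed (edgeR quasi-likelihood test, Benjamini-Hochberg adjusted p under 0.05 over all 645 features), where 4.34% of all features did, 28 in number and 13 of them tRNAs of other amino acids. A further 20 rows had reads but too few to be tested, at most 117 over the 12 libraries. At an unadjusted p under 0.05 there were 4 rows, or 5.06% of those tested against 18.4% of all features. All 4 were higher in TBI, as were 8.53% of all features at that threshold. DESeq2 also called none of the rows, against 6.67% of all features, with 6 rows at an unadjusted p under 0.05, against 20.5% of all features. The median log2 fold change of the 79 rows was 0.15, against 0.00 over all features and 0.07 over the other 195 tRNA rows, and 50 of the 79 were above 0, against 49.8% of all features.

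These fold changes carry a scaling choice. With the trimmed mean of M-values (TMM) the median of all features was 0.00, and with library size alone it was 0.30, so CPM values, which are scaled by library size, ran higher in TBI for the typical feature. On library size alone 2 of the 79 rows passed, 52 of the 55 features called were higher in TBI (18 of 28 with TMM), and 8.53% of all features were called. With limma on log2(CPM + 1), which is scaled in the same way, the same 2 rows passed, against 8.1% of all features. On library size alone the median of the 79 rows was 0.46. The CPM values given for the cortex below are to be read against that shift.

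The smallest unadjusted p belonged to tRNA3800-LeuCAG. Its lowest, median and highest values were 14.2, 17.8 and 23.5 CPM in sham cortex and 21.2, 36.6 and 54.3 CPM in TBI cortex. All TBI rats but 1 lay above every sham rat, and the log2 fold change was 0.64 with a standard error (SE) of 0.21 (edgeR, adjusted p = 0.118). It was 1 of the 9 like rows of Leu-CAG, and the other 8 ranged from 0.16 to 0.56, with tRNA2162-LeuCAG at 0.56 (SE 0.25, edgeR adjusted p = 0.251). tRNA3641-LeuCAG, which did not share their profile, had a log2 fold change of -0.49 (SE 0.31).

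tRNA7573-MetCAT was the single row among the 79 whose groups did not overlap in cortex CPM (1.27%, against 3.72% of all 645 features with every TBI value above every sham value). The sham cortex values were 27.7 CPM at the lowest, 29 at the median and 38.7 at the highest, and the TBI values were 45.7, 55.3 and 69.5 CPM. The log2 fold change was 0.59 (SE 0.20, edgeR adjusted p = 0.118). Together with tRNA3800-LeuCAG it formed the pair of rows that passed on library size alone, where its log2 fold change was 0.88 (edgeR adjusted p = 0.00623). In the thalamus the same row spanned 30.4 to 71.4 CPM in sham and 41.3 to 87.6 CPM in TBI, and the groups overlapped (log2 fold change 0.50, SE 0.24, limma adjusted p = 0.638).

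tRNA6234-AlaAGC had the largest fold change, 0.81 on the log2 scale (SE 0.30, edgeR adjusted p = 0.166), from few reads. It spanned 8.12 to 26.4 CPM in sham cortex and 10.2 to 44.8 CPM in TBI cortex, with 8 to 117 reads per library. tRNA16829-LeuTAA, which alone held 96.5% of the Leu-TAA reads, pointed the other way. Its sham values were 453.2, 598.2 and 1121 CPM at the lowest, median and highest and its TBI values 408.8, 510.4 and 829.7 CPM, and the log2 fold change was -0.52 (SE 0.25, edgeR adjusted p = 0.265).

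**Figure D3:**
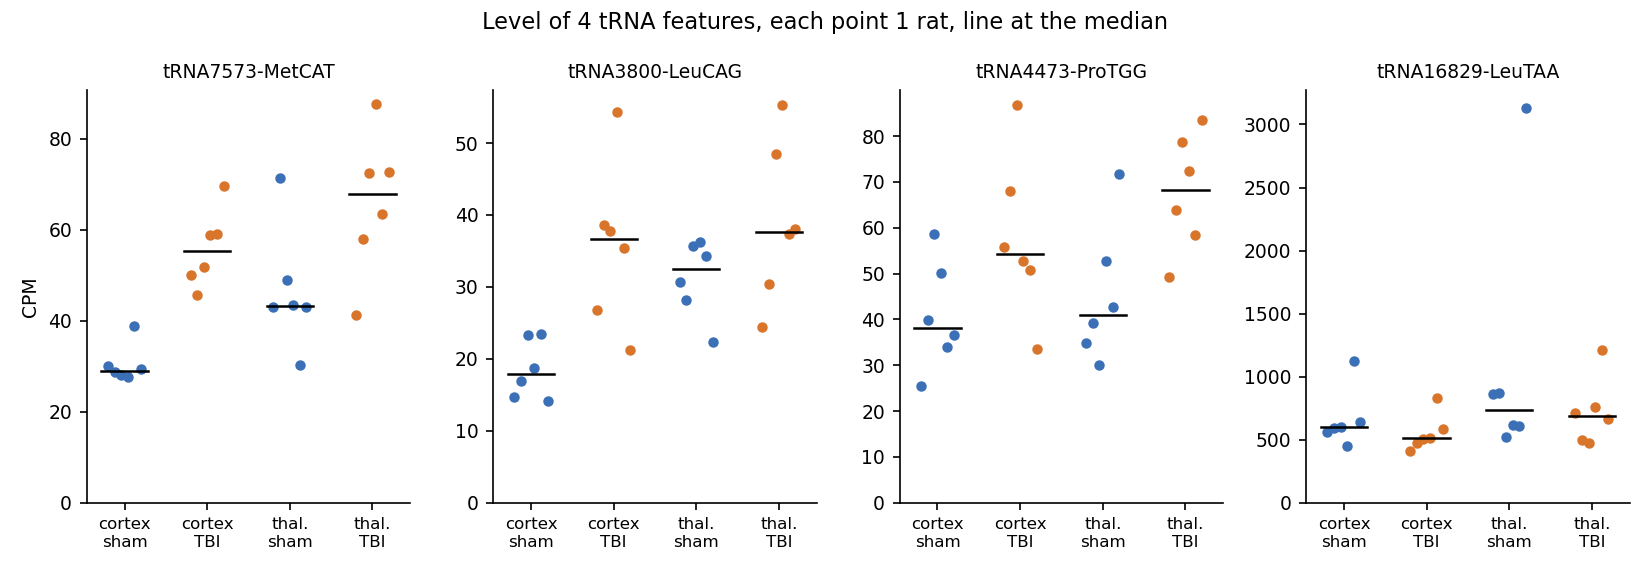
CPM of 4 rows in each of the 4 groups, with 1 point per rat, sham in blue, TBI in orange and a black line at the median, on axes that start at 0. For tRNA7573-MetCAT the TBI cortex values begin at 45.7 CPM, above the sham maximum of 38.7 CPM, and for tRNA16829-LeuTAA 1 sham thalamus reached 3133 CPM.

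In the thalamus the same question was put to CPM values, which are scaled by library size. Fold changes there are therefore not on the scale of the cortex values with TMM. None of the 79 rows passed (limma on log2(CPM + 1), adjusted over 640 features), where 2.19% of all features did, 14 in number and 12 of them tRNAs of other amino acids. There were 4 rows at an unadjusted p under 0.05, all higher in TBI, which is 5.06% of those tested against 7.97% of all features. With edgeR on reads recovered from the CPM, none passed, 3.61% of all 638 features did, and 2 rows had an unadjusted p under 0.05, against 8.93% of all features. The median log2 fold change of the rows was 0.17 against 0.06 over all features and 0.29 over the other 187 tRNA rows.

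The thalamus rows with the smallest p were from Met and Pro. tRNA3856-MetCAT spanned 25.1 to 38 CPM in sham thalamus (median 31.4) and 32.9 to 66.6 CPM in TBI thalamus (median 51.5), so the groups overlapped, with a log2 fold change of 0.65 (SE 0.22, limma adjusted p = 0.219). tRNA4473-ProTGG had sham values of 30, 41 and 71.8 CPM and TBI values of 49.3, 68.2 and 83.5 CPM. Its log2 fold change was 0.61 (SE 0.24, limma adjusted p = 0.332). The Pro-AGG rows tRNA1068 and tRNA12850 followed with 0.62 and 0.47. Their values in the cortex were 0.05 and 0.19 with TMM, a scaling that the thalamus CPM did not have. On library size alone all 17 Pro rows were above 0 in the cortex, as were 81.7% of all features. The Pro median there was 0.46, against 0.38 in the thalamus. All 17 Pro rows lay above 0 in the thalamus, from 0.01 to 0.62, as did 56.6% of all features and 78.1% of the other tRNA rows. The count was 15 of 17 with TMM factors and 16 of 17 with edgeR on recovered reads. Since Pro rows largely gave low chi-square values against each other, these are not 17 independent observations. With CPM rescaled to the summed tRNA CPM, 13 of the 17 were above 0 and the median of all features moved to -0.13.

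**Figure D4:**
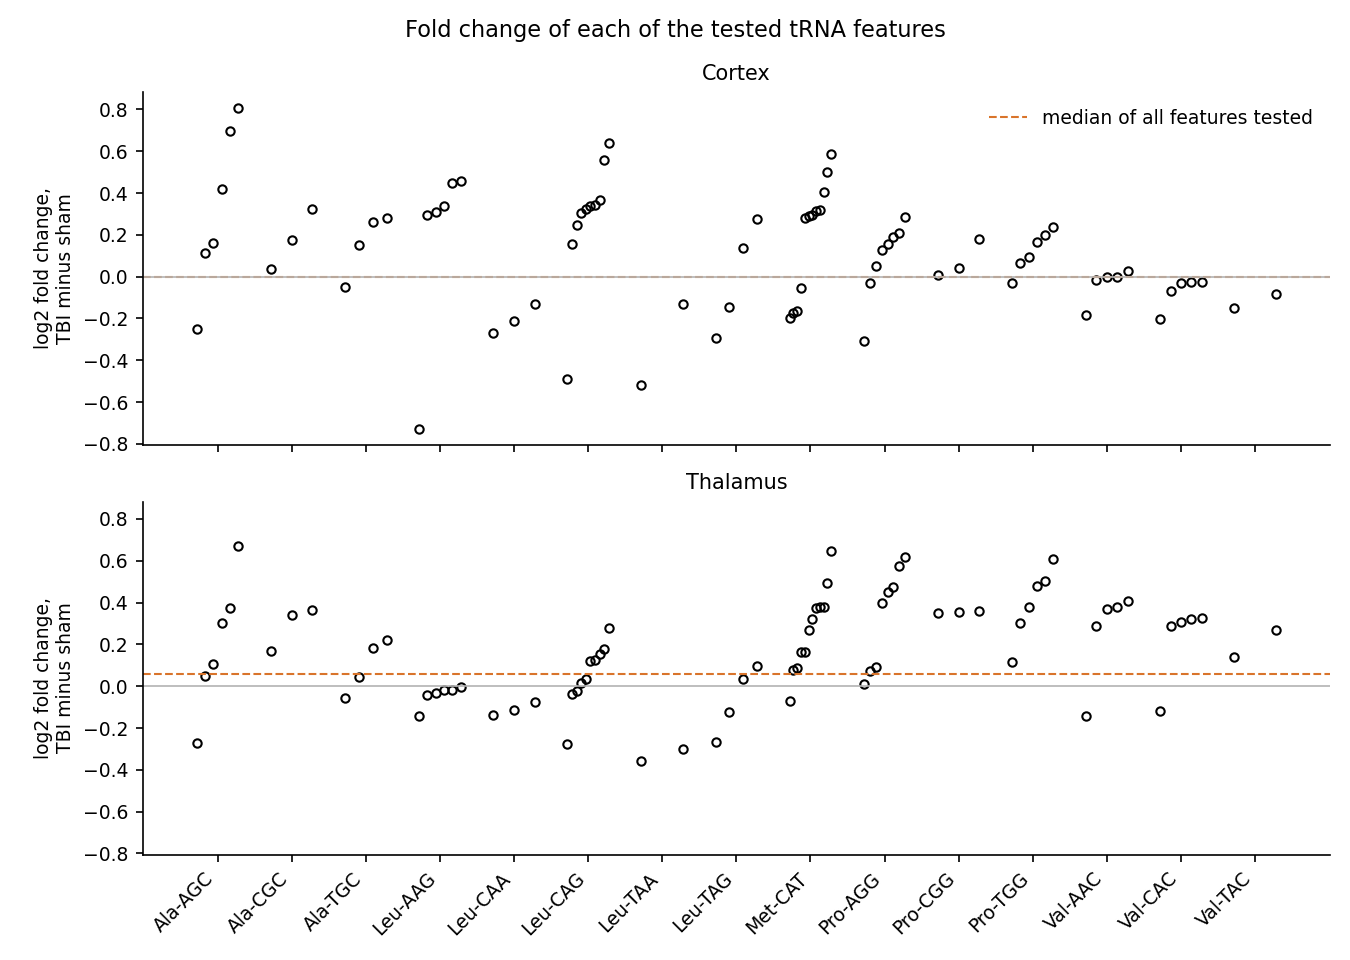
Log2 fold change, TBI minus sham, of the 79 tested rows in cortex (edgeR, top) and in thalamus (limma, bottom), 1 open circle per row, arranged by anticodon and sorted by value within each, with the median of all features tested dashed in orange. Cortex values are scaled with TMM and thalamus values by library size. Val rows lie close together in the cortex, between -0.20 and 0.03, and run from -0.14 to 0.41 in the thalamus. On library size alone, not drawn, the cortex Val rows ran from 0.13 to 0.35. Rows spread widely in Ala-AGC and Leu-AAG.

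Summing the reads of an anticodon removed the division among its rows. None of the 15 anticodons with reads passed in the cortex (edgeR, adjusted over 417 features), where 26 features or 6.24% did. At an unadjusted p under 0.05 there was 1, against 21.6% of all features, and DESeq2 gave the same one. The exception at the unadjusted threshold was Met-CAT, with 249.6, 348.2 and 423 CPM in sham and 452.5, 471.8 and 509.9 CPM in TBI cortex at the lowest, median and highest. The groups did not overlap, and the spread in TBI was narrow (SD 20.2 against 75.8 CPM in sham). The log2 fold change was 0.30 with a 95% confidence interval of 0.03 to 0.57 (edgeR, adjusted p = 0.19). It was the only anticodon of the 15 without overlap in the cortex, where 3.12% of all 417 features had every TBI value above every sham value.

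The other Ala and Leu anticodons overlapped between groups in the cortex. Ala-AGC spanned 56.4 to 118.5 CPM in sham (median 66.1) and 61.4 to 217.6 CPM in TBI (median 110), with a log2 fold change of 0.54 (95% confidence interval 0.00 to 1.08, edgeR adjusted p = 0.23). Ala-TGC spanned 109.5 to 144.1 CPM in sham and 140.2 to 213.4 CPM in TBI, so only 1 sham value exceeded any TBI value, and its log2 fold change was 0.28 (SE 0.14). Ala-CGC gave 0.30 (SE 0.18). The 2 Ala-GGC rows had no read in any cortex library, which allows up to 3 reads, or 0.666 to 3.54 CPM, depending on the library.

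Leu anticodons went in both directions. Leu-AAG spanned 252.8 to 642.1 CPM in sham cortex and 372.3 to 935.6 CPM in TBI cortex, with a log2 fold change of 0.43 (SE 0.24). Leu-CAG spanned 215.9 to 290.2 and 270.9 to 516.8 CPM, with 0.29 (SE 0.16). Leu-TAA spanned 467.3 to 1162 CPM in sham and 432.3 to 853.3 CPM in TBI, with -0.43 (SE 0.22, edgeR adjusted p = 0.262). Leaving out each rat in turn, the Leu-TAA value ran from -0.65 to -0.27, the latter without sham rat 50. Leu-TAG gave 0.22 (SE 0.18) and Leu-CAA -0.07 (SE 0.18), and none of these values passed the test.

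Pro and Val sums lay between 0.00 and 0.26 in the cortex on the log2 scale. Pro-AGG, Pro-CGG and Pro-TGG had log2 fold changes of 0.22, 0.21 and 0.26, with SE of 0.15 to 0.22. Val-AAC, Val-CAC and Val-TAC had 0.12, 0.08 and 0.00, with SE of 0.23 to 0.24. The 2 leading Val anticodons were therefore bounded only loosely, since their 95% confidence intervals ran from -0.37 to 0.60 and from -0.44 to 0.60.

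In the thalamus none of the 15 anticodon sums passed (limma, adjusted over 420 features), 4 features or 0.952% did, and none of the 15 had an unadjusted p under 0.05 in limma (5.95% of all features) or in edgeR on recovered reads. Pro-TGG had the smallest p. It spanned 128.9 to 296.9 CPM in sham (median 185.1) and 178.3 to 351.5 CPM in TBI (median 248.2), with a log2 fold change of 0.43 (95% confidence interval -0.08 to 0.94, limma adjusted p = 0.853). Pro-AGG and Pro-CGG gave 0.36 each.

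Val values in the thalamus were spread widely. Val-CAC ran from 1065 to 2969 CPM in sham rats and from 991 to 4332 CPM in TBI rats, with the 2 medians at 1319 and 1793 CPM. Val-AAC ran from 1074 to 2866 and from 1056 to 3992 CPM. Their log2 fold changes of 0.28 (SE 0.37) and 0.32 (SE 0.34) had 95% confidence intervals from -0.50 to 1.06 and from -0.42 to 1.05. The rat with the most Val-CAC in the thalamus was TBI rat 52, and in the cortex it was TBI rat 45.

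No Leu sum in the thalamus passed. Leu-AAG, Leu-CAG and Leu-TAG had log2 fold changes of -0.03, 0.01 and -0.01, with SE of 0.18 to 0.21, and Leu-CAA had -0.12 (SE 0.25). Leu-TAA had -0.36 (SE 0.38), which rested on 1 library. Sham rat 55 held 3182 CPM in the thalamus, where the other sham rats held 536.8 to 905.1 CPM and the TBI rats 494.7 to 1226 CPM. Without that rat the value was 0.00, and nearly all of its excess was tRNA16829-LeuTAA at 3133 CPM. The same rat's cortex held 655.3 CPM of Leu-TAA.

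**Figure D5:**
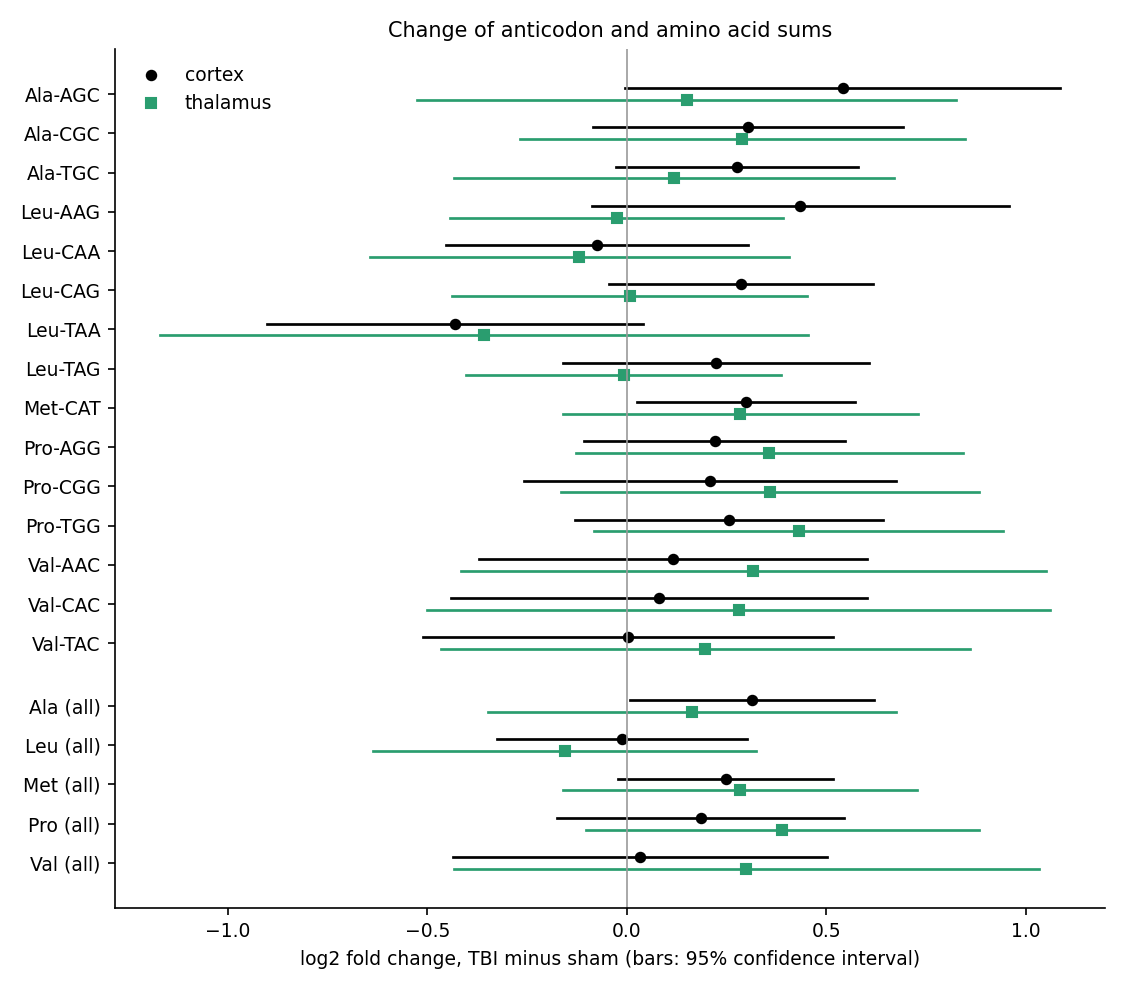
Log2 fold change, TBI minus sham, of each anticodon sum and each amino acid sum in cortex (black circles, edgeR) and thalamus (green squares, limma), with bars for the 95% confidence interval. In the cortex the bars of Met-CAT and of all Ala end just above 0 on their lower side, and none of the sums passed the adjusted threshold. Cortex values are scaled with TMM and thalamus values by library size.

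At the level of amino acids, Ala and Met separated the groups in cortex CPM and Leu, Pro and Val did not. Ala summed to 226.1, 237.1 and 304 CPM in sham cortex and 313.3, 347.3 and 537.4 CPM in TBI cortex at the lowest, median and highest. Every TBI value was above every sham value, as for Met, so 2 of 5 amino acids did not overlap, against 3.32% of all 392 features. The log2 fold change of Ala was 0.31 (95% confidence interval 0.01 to 0.62, edgeR adjusted p = 0.192) and that of Met 0.25 (interval -0.02 to 0.52, adjusted p = 0.245). The Met sum is of the same reads as Met-CAT, so the pair are 1 result, which had an unadjusted p of 0.034 among the anticodon sums and of 0.07 among the amino acid sums (edgeR). None of the 5 amino acids passed, against 6.63% of the 392 features, and 1 had an unadjusted p under 0.05. At that unadjusted threshold 25.3% of all features were found. On library size alone Ala passed, with 0.56 (edgeR adjusted p = 0.0356), against 10.7% of all features.

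The remaining amino acids had log2 fold changes of 0.19 for Pro (SE 0.17), 0.03 for Val (SE 0.22) and -0.01 for Leu (SE 0.15) in the cortex. These are with TMM, where the 95% confidence interval of Leu was -0.33 to 0.30, over anticodons that went in both directions. On library size alone the cortex values were 0.43 for Pro, 0.28 for Val and 0.22 for Leu. In the thalamus the values were 0.39 for Pro (SE 0.23), 0.30 for Val (SE 0.34), 0.28 for Met (SE 0.21), 0.16 for Ala (SE 0.24) and -0.16 for Leu (SE 0.22), which was 0.03 without sham rat 55. None passed (limma, 0.253% of all features), and none had an unadjusted p under 0.05 (5.57% of all features). The groups overlapped for all 5 in the thalamus. Ala spanned 263.5 to 500.6 CPM in sham and 272.4 to 600.4 CPM in TBI, and Met 347.9 to 570.2 and 359.3 to 729.7 CPM.

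Rows of other amino acids passed in the same fits. In the cortex 5 of 12 Asn rows and 4 of 22 Arg rows were higher in TBI, along with 1 row each of Ile, Lys, Phe and Trp. In the thalamus these counts were 7 of 10 for Asn, 3 of 21 for Arg, and 1 each for Ile and Lys. No tRNA row of any amino acid was called lower in either region. The median log2 fold change was 0.79 over the Asn rows in the cortex and 1.39 in the thalamus, against 0.17 and 0.18 over the Ala rows, 0.28 and -0.02 over the Leu rows, 0.29 and 0.29 over the Met rows, 0.13 and 0.38 over the Pro rows, and -0.03 and 0.30 over the Val rows. The cortex medians are with TMM and the thalamus medians on CPM, so each pair mixes scalings. On library size alone the cortex medians were 0.49 for Ala, 0.58 for Leu, 0.57 for Met, 0.46 for Pro and 0.29 for Val. The median of all features was then 0.30. Rows of an amino acid can share reads here too.

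The median SD of log2(CPM + 1) over the 79 rows was 0.35 in sham cortex and 0.43 in TBI cortex, where miRNAs had 0.32 and 0.37 and the other tRNAs 0.53 and 0.50. In the thalamus it was 0.44 in sham and 0.48 in TBI, against 0.49 and 0.47 for miRNAs. Val rows had the widest spread in the thalamus, 0.60 in sham and 0.75 in TBI. Met rows in TBI cortex had the narrowest, 0.22, against 0.50 in sham cortex. These differences in spread were not tested.

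Whether injury acted differently on the 2 regions was tested in 1 fit over all 24 libraries. None of the 78 rows in both tables passed for a different injury effect (limma, adjusted p under 0.05), and none of all 595 features did, so 0% were called. The median SE of the difference over the rows was 0.35 on the log2 scale. At an unadjusted p under 0.05 there was 1 row and 19 features in all, or 3.19%. The row was tRNA12023-LeuAAG, with a difference of -0.77 (SE 0.34), named after its value was seen. edgeR on reads gave 0 rows, and 14 features or 2.35%, at that unadjusted threshold. With the rat kept as a block, 6 rows (7.69%) had an unadjusted p under 0.05 in limma, where 5.71% of all features did. They were 3 Leu-CAG rows, 2 Leu-AAG rows and 1 Ala-AGC row, and the smallest adjusted p was 0.497 (limma). All 6 had the lower fold change in the thalamus, as had 33 of the 34 features at that threshold, or 5.55% of all features. The median difference over the rows was -0.21 on the log2 scale in limma and -0.01 in edgeR, against -0.20 and 0.00 over all features.

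Levels in cortex and thalamus of the sham rats were set side by side, with the reservation that the 2 tables were scaled separately. Over the 15 anticodons the median difference of mean log2(CPM + 1), thalamus minus cortex, was 0.45, but on reads with TMM it was 0.10 with the rat as a block and 0.19 without it. Leu-AAG showed the most, at 380.1 ± 139.7 CPM in cortex and 721.7 ± 94.7 CPM in thalamus (SD, n = 6), higher in thalamus in 6 of 6 sham rats and in 5 of 6 TBI rats. Its sham difference was 0.98 ± 0.47 on the log2 scale (SD over rats). Leu-TAG, Leu-CAG, Ala-TGC and Ala-CGC were also higher in thalamus in 6 of 6 sham rats, with differences of 0.71, 0.62, 0.61 and 0.56 on CPM and of 0.39, 0.29, 0.29 and 0.23 on reads with TMM and the block. Val-TAC, with -0.02 ± 1.00, and Pro-CGG, with 0.02 ± 0.53, had the smallest differences on CPM, and gave -0.34 and -0.32 on reads with TMM and the block.

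On reads with TMM and the rat as a block, Leu-AAG was the 1 of 15 anticodons that passed in sham rats, where 17.4% of all 391 features did. Its log2 difference was 0.66 (SE 0.21, edgeR adjusted p = 0.0499), and without the block it was 0.65 (edgeR adjusted p = 0.0443). In the TBI rats the blocked difference was 0.25 (SE 0.19, edgeR adjusted p = 0.347), none of the 15 passed, and 34.8% of all features did. Whether the Leu-AAG difference between regions itself differed between sham and TBI rats was not tested for the sum. Its 6 rows had been counted separately in the test of the 2 regions above, where none passed.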

How the data were processed

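Total RNA of each region was made into small RNA libraries, sequenced and aligned by the authors to the rat genome RGSC3.4 with miRBase annotation, and reads were counted per miRNA and tRNA. The aligner is not given in the sources used here. The deposited cortex table held counts of reads. The deposited small RNA tables held CPM, scaled by the authors to each library's total. Thalamus tRNAs were held only as CPM, so limma was the test there. Dividing the CPM by the value of 1 read, taken from miRNAs listed in both units, gave whole reads for 100% of tRNA values (tolerance 1e-06), which served edgeR as an alternative.

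Cortex counts were tested with edgeR 4.0.16 (filterByExpr, TMM, quasi-likelihood), thalamus CPM with limma 3.58.1 on log2(CPM + 1), with at least 1 CPM in 6 libraries and a trend, in R 4.3.3. DESeq2 1.42.0 was an alternative. Adjustment was over all features, at 0.05. The scripts were tested on simulated data. The 24 libraries were grouped by their labels, and each rat gave 1 library a region. Same-numbered libraries came from 1 rat, and their deviations from the group means correlated at -0.24 to 0.64, above 0.1 in 8 of 12 rats. Libraries of a group differed by more than counting noise. Depth is given with the results, intervals of fold changes come from the spread between rats, and the floor of 3 reads on a row without reads covers counting error only.

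Named were, of the rows, any that passed, the highest of each anticodon in each region, and the 5 smallest p-values in each region, and all sums. The amino acids, gene lists and tests were chosen with earlier results of these data known. Lengths were from RefSeq (GRCr8), whose tRNA genes can include introns. No tRNA sequence was used here.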

Additional observations from a re-analysis of the deposited data

Results flagged for a closer look

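Within a group of 6 rats, a value was picked out where its gap to the nearest other rat, divided by the group's whole range, exceeded Dixon's critical value for 6 values. Over the 184 groups examined (sums, named rows, depth and tRNA shares), 18 were picked out. The rule picks out about 1 in 20, or 9.2, where values are normally distributed, which was not checked for these values. All of the 18 were the highest value of their group, many of them overlap because a row is part of a sum, and reads can be shared among rows.

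Sham rat 55 stood out in the thalamus, with 3182 CPM for Leu-TAA, 3133 CPM for tRNA16829-LeuTAA and 5529 CPM for all Leu. The next sham values were 905.1, 874.3 and 2813 CPM. In the cortex the same anticodon was picked out in sham rat 50, with 1162 CPM for Leu-TAA and 1121 CPM for tRNA16829-LeuTAA, and in TBI rat 56, with 853.3 CPM.

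Pro-CGG was highest in sham rat 38 in the cortex, at 139.2 CPM with tRNA2457-ProCGG at 51.7 CPM, and in TBI rat 45, at 207.5 CPM with tRNA2457-ProCGG at 67.6 CPM and all Pro at 806.3 CPM. TBI rat 52 had the highest cortex sums of Ala, 537.4 CPM, and of Leu-CAG, 516.8 CPM. Sham rat 34 had the highest sham cortex values of Ala-AGC, 118.5 CPM, of tRNA6234-AlaAGC, 26.4 CPM, and of tRNA11779-LeuTAG, 220.4 CPM. Sham rat 50 also led for tRNA7573-MetCAT in the cortex, at 38.7 CPM, which lay below every TBI cortex value. In the thalamus sham rat 32 led for tRNA1647-MetCAT, at 64.2 CPM. The causes were not tested.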

How the results depend on the processing

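The count of rows called was 0 in the cortex with TMM, with relative log expression, with the tRNA reads as library size, with DESeq2, without a filter and with a mean of at least 50 reads. It was 2 on library size alone and 2 with limma on log2(CPM + 1), which is also scaled by library size (tRNA3800-LeuCAG and tRNA7573-MetCAT in both). Rows at an unadjusted p under 0.05 numbered 4 with TMM, 32 on library size alone and 29 with limma. Calls over all cortex features numbered 28 with TMM, 55 on library size alone, 61 with limma, 43 with DESeq2, and 7 both with the tRNA reads as library size and with a mean of at least 50 reads. For amino acid sums in the cortex 1 was called on library size alone (Ala) and 0 otherwise, and for anticodon sums 0 were called under each alternative. In the thalamus 0 rows and 0 sums were called under each alternative, among them a library-size-only edgeR fit on recovered reads that was chosen after seeing the data, while calls over all features ranged from 6, with CPM scaled to tRNA, to 23, with edgeR. Leaving out each rat in turn gave 0 to 0 called rows and 0 to 0 called anticodon or amino acid sums (the latter chosen after seeing the data) in both regions, with 3 to 10 rows in the cortex and 1 to 9 in the thalamus at an unadjusted p under 0.05. The smallest adjusted p among rows in those fits was 0.0563 in the cortex and 0.0842 in the thalamus.

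With the rat as a block, the pairing that the shared animals give, the comparison of injury between regions called 0 rows, as it did without the block, and blocking changed no other call. The median sham difference between regions depended on the scaling. It was 0.45 on CPM, 0.10 in edgeR with the block, 0.19 in edgeR without it and 0.28 with CPM scaled to tRNA. The alternatives lay within 1 SD over rats (0.41) of the CPM value, but that SD measures the spread between rats and not the effect of scaling. Without sham rat 50 the cortex log2 fold change of Leu-TAA was -0.27, and without sham rat 55 the thalamus one was 0.00, from -0.43 and -0.36, and that of all Leu 0.03, from -0.16. Over all fits that left out 1 rat, Leu-TAA ran from -0.65 to -0.27 in the cortex and from -0.52 to 0.00 in the thalamus. Values that changed sign against the reported one numbered 55 of 433 for the named rows and 19 of 225 for the anticodon sums in the cortex, 21 of 460 and 26 of 225 in the thalamus, 11 of 92 for the difference between regions, and 10 and 2 of 70 for the amino acid sums, and none of these had passed. The number of rats limits what can be seen: the median SE of a row was 0.23 in the cortex and 0.27 in the thalamus on the log2 scale.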
